A study of Homo sapiens with 2 samples.

Results

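Genes whose proteins detect or act on double-stranded RNA were examined after knockdown of LAST, a long noncoding RNA that c-Myc induces, in the human colorectal carcinoma line HCT116. The genes were chosen by name, 9 in all, namely the RIG-I-like receptor genes DDX58, IFIH1 and DHX58, the adaptor gene MAVS, the kinase gene EIF2AK2, the editing enzyme gene ADAR, and the oligoadenylate synthetase genes OAS1, OAS2 and OAS3. The expression table had rows for 7 of them among its 11420 gene records, and DHX58 and OAS2 were not analysed here. One library came from cells infected with lentivirus expressing LAST shRNA and the other from cells infected with lentivirus expressing control shRNA, both taken 96 hr after infection. Both groups thus carried a lentivirus and a short hairpin RNA, and no uninfected cells were analysed here. Each group is a single library, so differences between them were not tested and carry no replicate error. The depletion of LAST was not analysed here either, and the library labels were taken as given.

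Levels are given as FPKM, the fragments mapped to a gene scaled to its transcript length and to the size of the library, and the number of fragments behind them is unknown. The log2 ratio is that of FPKM + 1 with LAST shRNA over FPKM + 1 with control shRNA, which understates differences of weakly expressed genes. A gene is called higher at 0.58 or above and lower at -0.58 or below, the limit that the study set for lower genes, used here in both directions. RNA was taken from bulk cells, where more cells expressing a gene and more RNA per cell cannot be told apart. Of 12 epithelial and colorectal markers, 9 had rows, with a summed FPKM of 900 with LAST shRNA and 848 with control shRNA, 1 called higher (KRT20) and 0 lower, while VIL1, CDX1 and LGALS4 had none. The adhesion molecule gene EPCAM was at 139 with LAST shRNA against 137 with control shRNA, and log2 ratios over the 9, as defined below, went from -0.35 for CDX2 to 1.39 for KRT20. Of 12 immune cell markers only CD68 and HLA-DRA had rows, and their summed FPKM was 6.13 with LAST shRNA and 2.25 with control shRNA. Both were called higher, against 6.80% of all records, with log2 ratios of 0.72 for CD68 and 1.21 for HLA-DRA. CD68 was at 3.26 with LAST shRNA against 1.58 with control shRNA. Of 12 stromal and endothelial markers 2 had rows, with a summed FPKM of 3.35 with LAST shRNA and 2.56 with control shRNA. The part of these cell types in the levels below was not tested.

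Double-stranded RNA is rare in the cytosol of an uninfected cell, and several proteins treat it as a sign of viral infection. RIG-I (encoded by DDX58) and MDA5 (IFIH1) are helicases that bind it and then engage MAVS on mitochondria, which leads to the production of type I and type III interferons. PKR (EIF2AK2) halts translation by phosphorylating eIF2α, and OAS enzymes make 2′-5′-linked oligoadenylates, a signal that leads to the decay of RNA. ADAR deaminates adenosines in double-stranded RNA, which marks the cell's own transcripts and restrains MDA5 and PKR. Many of these genes are themselves induced by interferon, through a promoter motif called the interferon-stimulated response element (ISRE).

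The promoters are shown first, with the motif through which interferon acts on many of these genes. RefSeq promoters of build GRCh38.p14, from 250 bases before to 50 bases after a start site, were found for all 7 genes, with DDX58 listed there as RIGI and with 3 start sites for ADAR. The ISRE core searched for was GAAA, any 2 bases, and GAAA again, on both strands. It was present in the promoters of IFIH1 (3 matches), OAS3 (2) and EIF2AK2 (1), and in 3.57% of all 35116 promoters and 4.38% of all 27305 genes in the collection. A form with only 1 base between the repeats, which was added after the sequences had been seen, was present in those of DDX58, OAS1 and OAS3 and in 3.12% of all promoters, or 3.87% of genes. In the lines below the matches are in capitals and the strand is that of the gene.
OAS3, upstream (chr12:112938316-112938350, plus strand): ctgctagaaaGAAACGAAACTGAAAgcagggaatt
OAS3, near the start (chr12:112938452-112938481, plus strand): agccgggcggGAAAACGAAAccagaaatcc
EIF2AK2 (chr2:37156967-37156996, minus strand): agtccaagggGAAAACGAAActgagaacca
OAS1 (chr12:112906935-112906963, plus strand): cccttctgagGAAACGAAAccaacagcag
DDX58 (chr9:32526381-32526409, minus strand): ggtgcggaggGAAACGAAActagcccgag
IFIH1, near the start (chr2:162318686-162318715, minus strand): gaagagaatcGAAACAGAAAccaaagtcag
IFIH1, upstream (chr2:162318818-162318853, minus strand): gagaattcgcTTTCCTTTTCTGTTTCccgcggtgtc

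Read side by side, the match of OAS3 near its start and that of EIF2AK2 were the same 10 bases, and the matches of OAS1 and DDX58 were the same 9 bases, which also opened the upstream match of OAS3. The upstream match of OAS3 held both forms overlapping each other, and that of IFIH1 held 2 overlapping ISRE cores on the opposite strand. Matches lay close to the start site in OAS3 (-12 to -3), OAS1 (-17 to -9), IFIH1 (-21 to -12) and EIF2AK2 (-6 to 4, across the start), and farther away in DDX58 (-203 to -195). Neither form was present in the promoter of MAVS or in the 3 promoters of ADAR. Either form was present in 5 of the 7 genes and in 7.83% of all genes (6.40% of promoters). The core of the gamma-activated sequence (GAS), a motif of the response to interferon gamma, was searched as TTC, any 3 bases, and GAA, and was present in OAS1 alone of the 7 and in 9.38% of all genes. These are letters in a window and not shown binding sites.

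The whole promoter of OAS3, the gene with the largest log2 ratio of the 7, shows how far apart the upstream and the near match lay (chr12:112938224-112938523, plus strand, the start site being base 112938474).
OAS3 promoter: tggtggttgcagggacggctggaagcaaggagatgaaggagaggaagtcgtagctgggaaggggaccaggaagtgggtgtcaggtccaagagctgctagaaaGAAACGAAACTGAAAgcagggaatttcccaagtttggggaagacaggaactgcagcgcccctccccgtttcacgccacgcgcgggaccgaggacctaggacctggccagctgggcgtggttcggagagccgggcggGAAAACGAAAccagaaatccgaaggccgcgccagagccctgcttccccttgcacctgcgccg

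**Figure D1:**
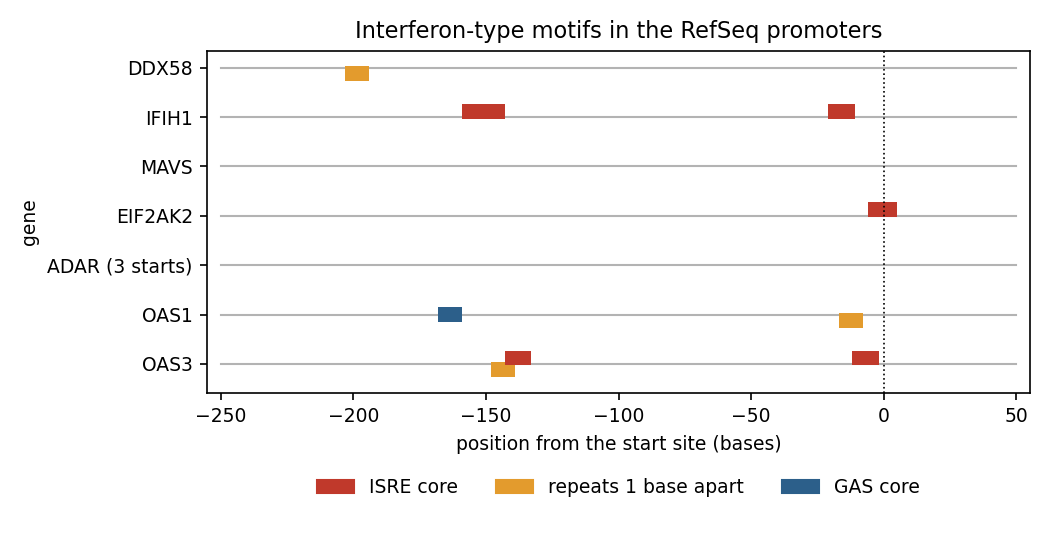
Positions of the ISRE core (red), of the form with 1 base between the repeats (orange) and of the GAS core (blue) in the RefSeq promoters of the 7 genes, drawn from 250 bases before to 50 bases after the start site (dotted line at 0), in bases. OAS3, IFIH1, OAS1 and EIF2AK2 have a match within 21 bases of the start, DDX58 has one farther upstream, and MAVS and the 3 promoters of ADAR have none.

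The sensors that start the response were at higher levels with LAST shRNA, whereas the adaptor between them and the interferon genes was not. Of the 7 measured genes 5 were called higher and 0 were called lower, against 6.80% called higher and 5.88% called lower of all 11420 records. The median log2 ratio of the 7 was 0.91, against 0.01 over all records, and all 7 lay above 0, as did 5860 of the 11420 records. Together they summed to an FPKM of 86.9 with LAST shRNA and 54.1 with control shRNA. The ISRE core was present in 3 of the 5 genes called higher, and with the 1-base form added in all 5, while neither form was present in the windows of MAVS and ADAR. Windows of 300 bases and these 2 patterns do not show that MAVS or ADAR lacks an ISRE. The second form was added after the sequences and these ratios had been seen, so its fit to the 5 genes supports nothing.

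**Figure D2:**
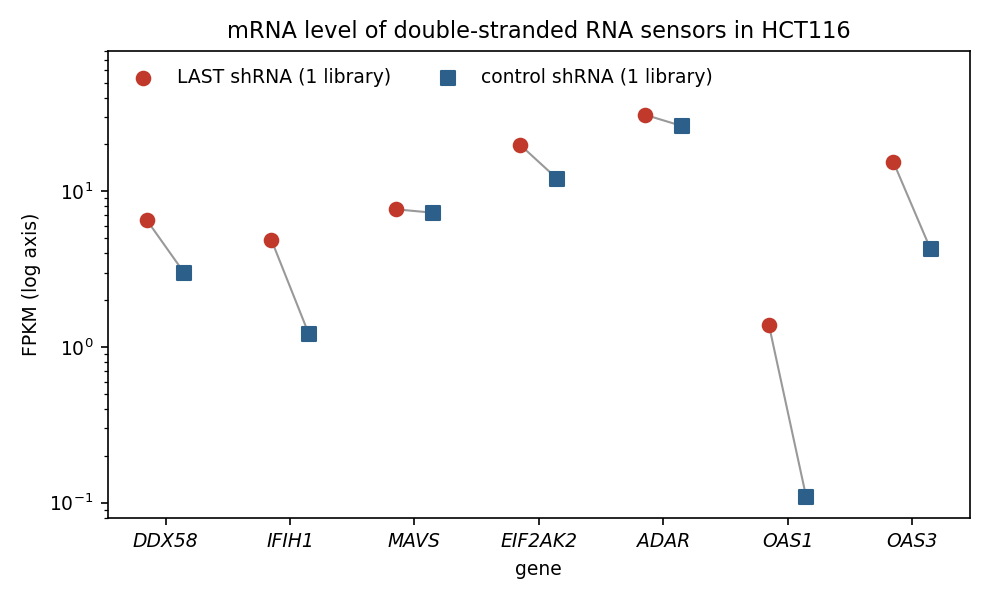
FPKM (log axis) of the 7 genes with LAST shRNA (red circles) and control shRNA (blue squares), 1 library each, joined by a line per gene. The line is steep for OAS1, IFIH1 and OAS3, and nearly level for MAVS, at 7.67 and 7.29, and ADAR, at 31.1 and 26.3.

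Among the receptors, DDX58 was at 6.51 with LAST shRNA against 2.99 with control shRNA. RIG-I, its product, binds short double-stranded RNA ends that carry a triphosphate. The level was 2.18-fold higher (log2 ratio 0.91), and 3.19% of all records had a ratio as high. IFIH1 was at 4.88 with LAST shRNA against 1.22 with control shRNA, 3.99-fold higher (1.40), and 1.41% of all records had a ratio as high. MDA5, its product, binds long double-stranded RNA along its length. The receptors came closer to each other in level, since DDX58 was 1.33 times IFIH1 with LAST shRNA and 2.44 times with control shRNA. Their summed FPKM was 11.4 with LAST shRNA and 4.21 with control shRNA, a 2.70-fold difference.

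MAVS, through which both receptors signal, was at 7.67 with LAST shRNA against 7.29 with control shRNA, a log2 ratio of 0.06. Relative to its receptors the adaptor was therefore less abundant with LAST shRNA, where MAVS was 1.18 times DDX58 and 1.57 times IFIH1, while with control shRNA it was 2.44 times DDX58 and 5.95 times IFIH1. These are ratios of mRNA levels per length and say nothing of the proteins.

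Of the OAS enzymes, OAS3 had the largest log2 ratio of the 7 genes, and OAS1 the lowest levels. OAS3 makes the longest of the OAS proteins and was at 15.5 with LAST shRNA against 4.25 with control shRNA, 3.64-fold higher (1.65), a ratio reached by 0.972% of all records. OAS1 encodes the shortest of them and was at 1.39 with LAST shRNA against 0.109 with control shRNA. The ratio of these values is 12.7 and the log2 ratio 1.11, and the size of both depends on a control value close to 0. OAS3 was the more abundant of the 2 in both libraries, at 11.1 times OAS1 with LAST shRNA and 38.9 times with control shRNA. The 2 genes lay next to each other on chromosome 12 with 5129 bases between them, OAS1 from 113344582 to 113371027 and OAS3 from 113376157 to 113411054, both on the plus strand in hg19.

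The kinase and the editing enzyme were the most abundant of the 7, and their log2 ratios were smaller than those of all the others but MAVS. EIF2AK2, which encodes PKR, was at 19.9 with LAST shRNA against 12 with control shRNA, 1.66-fold higher (0.68), and 5.17% of all records had a ratio as high. ADAR was at 31.1 with LAST shRNA against 26.3 with control shRNA, a log2 ratio of 0.23 that was not called. In ADAR an interferon-inducible and a constitutive promoter make proteins of different length, and a value per gene does not separate them. ADAR exceeded every other gene of the group in both libraries. Its share of their summed FPKM was 35.8% with LAST shRNA and 48.5% with control shRNA, and it was 6.37 times IFIH1 with LAST shRNA and 21.5 times with control shRNA.

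**Figure D3:**
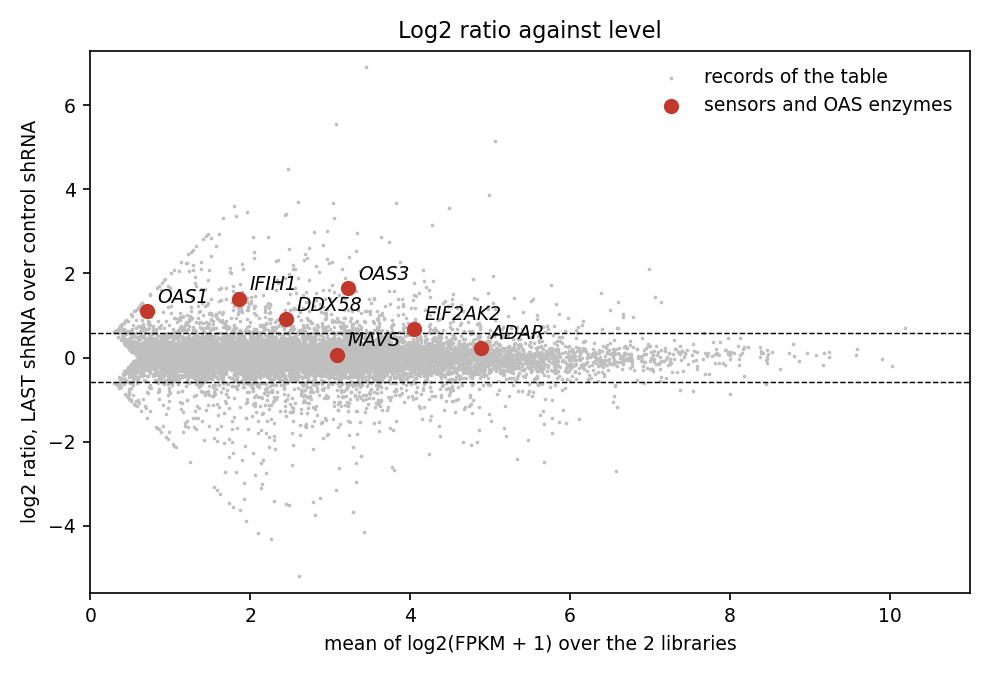
Log2 ratio (LAST shRNA over control shRNA) against the mean of log2(FPKM + 1) over the 2 libraries, for the 11420 records (grey) and the 7 genes (red), with dashed lines at 0.58 and -0.58. OAS3, IFIH1, OAS1, DDX58 and EIF2AK2 lie above the upper line, ADAR at 0.23 and MAVS at 0.06 lie between the lines, and OAS1 has the lowest level of the 7.

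The order of levels was ADAR, EIF2AK2, OAS3, MAVS, DDX58, IFIH1 and OAS1 with LAST shRNA, and ADAR, EIF2AK2, MAVS, OAS3, DDX58, IFIH1 and OAS1 with control shRNA, so OAS3 and MAVS had changed places. Without replicates no spread is known for any neighbours in this order. Set beside records of like level, by the higher value of a record, OAS1 and IFIH1 (2 of 2 under an FPKM of 5) stood against 5.97% called higher. OAS1 is counted here only because of its LAST shRNA value. DDX58, EIF2AK2 and OAS3 (3 of 4 from 5 to under 20, MAVS being the other) stood against 7.44%, and ADAR (0 of 1 at 20 or more) against 7.58%.

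In this table the share of genes called differed with exon structure. The largest exon held 23.6% of the longest coding transcript in IFIH1, 39.4% in DDX58, 44.4% in ADAR and 48.9% in OAS3. It held 55.7% in OAS1, 81.5% in EIF2AK2 and 89.0% in MAVS. Of records under 50%, 3.89% were called higher, and of the 4 genes in that class 3 were. Of records at 50% or more, 9.03% were called higher, and of the 3 genes in that class 2 were. The part of exon structure in the ratios was not tested.

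The nearest records on either side of the 7 genes, with any that overlap them, were 13 other genes, of which 3 were called higher and 0 lower, against 6.80% and 5.88% of all records. The 3 were DPP4 beside IFIH1 (1.22), PTPN11 beside OAS1 (0.92) and UBE2Q1 beside ADAR (0.72), and OAS1 and OAS3, both called higher, are each other's neighbours. IFIH1 and GCA, a calcium-binding protein gene, run away from each other with 136 bases between their loci, and GCA was at 2.97 with LAST shRNA against 3.43 with control shRNA (-0.16). GPATCH11 overlaps EIF2AK2 on the other strand and was at 6.36 with LAST shRNA against 6.65 with control shRNA (-0.05). The kit keeps strand, but whether counting used it is not stated, so reads of this pair may not be separated. ACO1 ends 935 bases from the end of DDX58 and was at 8.38 with LAST shRNA against 8.45 with control shRNA (-0.01). The nearest records to EIF2AK2 without overlap were HEATR5B (0.20) on one side and CEBPZOS (0.05) on the other. On the other side of DDX58 from ACO1 the nearest record was TOPORS (0.13). Positions in hg19 were chromosome 9 from 32455703 to 32526322 for DDX58, chromosome 2 from 163123589 to 163175213 for IFIH1 and from 37326353 to 37384208 for EIF2AK2, and chromosome 1 from 154554538 to 154600475 for ADAR, all on the minus strand. MAVS lay on the plus strand of chromosome 20, from 3827446 to 3856770.

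Of 39 measured cofactors of the receptors and genes of MAVS signalling, 4 were called higher (10.3%) and 0 lower, with a median log2 ratio of -0.02, against 6.80% higher, 5.88% lower and a median of 0.01 over all records. The share called higher was near that of all records. TRIM25, an E3 ligase that activates RIG-I, was 2.08-fold higher, at 25.8 with LAST shRNA against 12.4 with control shRNA (1.0), and RNF135, the ligase Riplet, was at 1.63 with LAST shRNA against 1.80 with control shRNA (-0.09). TRIM14, an adaptor that binds MAVS, was 6.10-fold higher, at 14.1 with LAST shRNA against 2.31 with control shRNA (2.19), and 82.0% of its transcript lies in 1 exon. DDX60, a helicase linked to RIG-I signalling, was at 5.81 with LAST shRNA against 2.27 with control shRNA (1.06). Of the transcription factors at the end of the chain, IRF7, which is itself interferon-inducible, was 2.96-fold higher, at 3.49 with LAST shRNA against 1.18 with control shRNA (1.04), and IRF3, which is constitutive, was at 9.77 with LAST shRNA against 8.42 with control shRNA (0.19). The kinase gene TBK1, which phosphorylates both, was at 11.6 with LAST shRNA against 13.9 with control shRNA (-0.24), and IKBKB (-0.02) and YWHAH (0.01) were among those closest to 0.

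Of 30 measured genes listed as restraining the receptors and MAVS, 1 was called higher (3.33%, against 6.80% of all records) and 0 were called lower (against 5.88%), with a median of -0.04. In a list of this size such counts are near those of the whole table. The one called was LGALS3BP, a secreted glycoprotein gene, at 82.2 with LAST shRNA against 54.4 with control shRNA (0.59), just inside the threshold. It was not called with the libraries scaled to a median log2 ratio of 0. Whether its product restrains or aids this signalling was not examined here. The ubiquitin ligase gene RNF125, whose product marks RIG-I for degradation, was at 2.44 with LAST shRNA against 2.36 with control shRNA (0.03), and the deubiquitinase gene TNFAIP3 at 1.67 with LAST shRNA against 1.72 with control shRNA (-0.02).

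Of 9 genes of the 2′-5′ oligoadenylate pathway 2 were called higher (22.2%, against 6.80% of all records) and 0 lower (against 5.88%), with a median of 0.02. OASL, a relative of the OAS genes whose product lacks the synthetase activity, was 2.01-fold higher, at 4.11 with LAST shRNA against 2.04 with control shRNA (0.75). PDE12, a phosphodiesterase that degrades 2′-5′-linked oligoadenylates, was 6.19-fold higher, at 11.1 with LAST shRNA against 1.79 with control shRNA (2.12), with 83.0% of its transcript in 1 exon. DXO (-0.03) and TTC37 (0.02) were closest to 0.

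Of 19 partners of PKR and genes of the eIF2 pathway, 0 were called higher and 0 lower, with a median of -0.07. With 6.80% and 5.88% of all records called, a list of this size would hold few calls in any case. EIF2S1, which encodes the eIF2α subunit that PKR phosphorylates, was at 41.1 with LAST shRNA against 43.3 with control shRNA (-0.07). PRKRA, an activator of PKR, was at 8.38 with LAST shRNA against 9.14 with control shRNA (-0.11), and TARBP2, an inhibitor of PKR and partner of Dicer, at 3.95 with LAST shRNA against 5.37 with control shRNA (-0.36). EIF2AK1 (-0.02) and EIF2B1 (0.02) were closest to 0. EIF2AK2 was the only called gene among the 4 eIF2 kinase genes, the others being EIF2AK1, EIF2AK3 (0.39) and EIF2AK4 (0.05).

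Of 28 other measured genes of proteins that bind or edit double-stranded RNA, 3 were called higher and 2 lower, with a median of -0.10. These counts are near the 6.80% and 5.88% of all records. The 3 were the interferon-induced RNA-binding genes IFIT1, at 8.34 with LAST shRNA against 0.818 with control shRNA (2.36), IFIT2, at 1.50 with LAST shRNA against 0.184 with control shRNA (1.08), and IFIT3, at 2.24 with LAST shRNA against 0.708 with control shRNA (0.92). IFIT2 had a row only through its LAST shRNA value. TICAM1, the adaptor TRIF of the endosomal receptor TLR3, was 21.1-fold lower, at 0.549 with LAST shRNA against 11.6 with control shRNA (-3.02), with 96.6% of its transcript in 1 exon. DDX21, a nucleolar helicase, was 2.27-fold lower, at 63.4 with LAST shRNA against 144 with control shRNA (-1.17). TLR3 had no row. ADARB1, the second active editing enzyme gene, was at 1.84 with LAST shRNA against 1.74 with control shRNA (0.05), and DROSHA and DHX33 had ratios of 0.00.

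**Figure D4:**
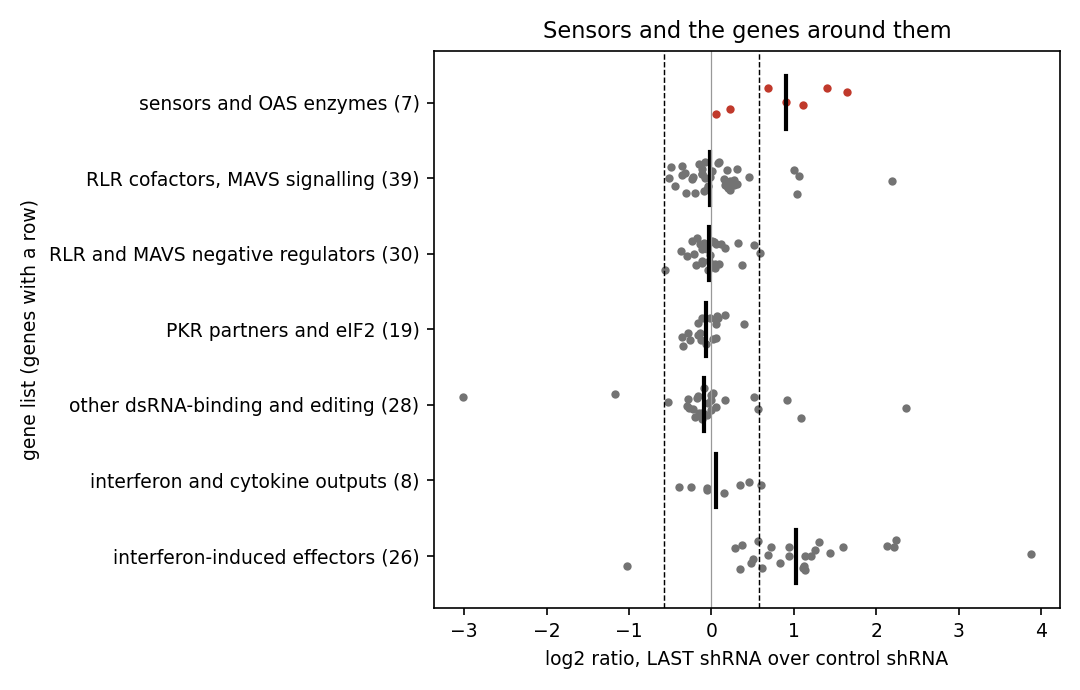
Log2 ratio (LAST shRNA over control shRNA) of each measured gene, 1 point per gene, for the 7 sensors and OAS enzymes (red) and for 6 lists of related genes (grey), with black bars at the medians, dashed lines at 0.58 and -0.58, and points spread vertically only for view. RLR stands for RIG-I-like receptor. The median is 0.91 for the sensors and 1.02 for the interferon-induced effectors, and between -0.10 and 0.05 for the other lists drawn. The lists of the oligoadenylate pathway (median 0.02) and of interferon receptors and their signalling (median 0.16) are not drawn.

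The interferons that the sensors induce were hardly seen in the table, while the machinery that answers interferon was, with some of its genes called higher. Of 22 interferon and cytokine genes 8 had rows, and IFNB1, IFNL1, CXCL10 and CCL5 were not among them. IFNL3, a type III interferon with a near-identical copy in IFNL2, was at 0.519 with LAST shRNA and listed at 0 with control shRNA (0.60), and was the only one of the 8 called, against 6.80% higher over all records. Its row, too, came only through the LAST shRNA value. CXCL8, a chemokine target of NF-κB, was at 1.28 with LAST shRNA against 1.36 with control shRNA (-0.05), and NFKBIA, the NF-κB inhibitor, had a log2 ratio of 0.34. Of 14 measured genes of interferon receptors and their signalling, 3 were called higher (21.4%, against 6.80% of all records) and 0 lower (against 5.88%). Their median log2 ratio was 0.16. Those called included the transcription factor genes STAT2 and IRF9, while IRF1 (0.34) and IRF2 (-0.20) were not called. STAT2 was at 5.39 with LAST shRNA against 2.88 with control shRNA (0.72) and IRF9 at 4.40 with LAST shRNA against 0.258 with control shRNA (2.10). IRF9 had a row only through its LAST shRNA value. The receptor genes IFNAR1 (-0.20) and IFNAR2 (0.56) were not called.

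The interferon-induced effectors, which carry out much of the antiviral response, had 19 of 26 measured genes called higher (73.1%, against 6.80% of all records), 1 lower (against 5.88%) and a median of 1.02. Another 9 of the 35 listed had no row and do not enter this share. They were MX1, MX2, IFI44L, RSAD2, TRIM22, SAMD9L, XAF1, EPSTI1 and CMPK2. With both libraries at an FPKM of at least 1, 15 were called higher, against 557 of the 9694 records that pass this filter. It drops IFI44, IFI27, IFITM1, SP110, ISG20 and PARP10 from the 26. IFI6, a mitochondrial protein gene, had the highest log2 ratio, at 121 with LAST shRNA against 7.28 with control shRNA (3.88). ISG15, a ubiquitin-like modifier gene, was at 220 with LAST shRNA against 80.3 with control shRNA (1.44), and UBE2L6, which encodes its conjugating enzyme, at 11.4 with LAST shRNA against 1.69 with control shRNA (2.21). Also among the 8 with the largest ratios were IFI44 (2.24), IFITM1 (2.13), IFI27 (1.60), IFITM3 (1.31) and PARP12 (1.25). IFI44 was at 3.98 with LAST shRNA against 0.0524 with control shRNA, and IFI27 at 2.21 with LAST shRNA against 0.0577 with control shRNA. These 2 had rows only through their LAST shRNA values. TRIM21 (0.34) and BST2 (0.28) were closest to 0. LY6E was the one called lower, at 18.4 with LAST shRNA against 38.3 with control shRNA (-1.02). OAS3 thus had a larger ratio than the median effector, as had IFIH1 and OAS1, and DDX58 and EIF2AK2 had smaller ones. Over the 9381 records matched to a RefSeq promoter, 351 had the ISRE core, of which 11.1% were called higher and 4.84% lower, and 6.29% of the 9030 without it were called higher.

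Over the 2 libraries, the records whose pair of values was most like that of OAS3 were SS18L2, BOK, YIPF5, DESI1 and DR1. The measure was the distance between the pairs of log2(FPKM + 1), from 0.016 to 0.172, among the 9693 records that reached an FPKM of 1 in each library. With only 2 values per gene, such likeness is that of level and ratio alone.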

How the data were processed

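mRNA-seq libraries of HCT116 cells were prepared from total RNA with a KAPA stranded kit, 1 per group, and assigned to groups by the shRNA label. The submitters' processing notes name cutadapt, FastQC, HISAT2, StringTie and hg19. Tool versions, and whether counting was stranded, are not stated. The deposited table holds FPKM per gene, as the authors computed it, for 11420 records of protein-coding type with a higher value of at least 0.500. No counts were used and the depth is unknown.

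Log2 ratios used a pseudocount of 1 and no filter or further scaling. Shares called were taken over the whole table. Genes and lists were chosen with earlier results of these data known. All 7 measured genes are named, as are preset pathway genes, called list members (at most 8 per list) and the 2 per list with the smallest ratios among genes at an FPKM of 1 or more in each library. LY6E, GPATCH11 and other neighbours, RNF125, ADARB1, EIF2AK3, EIF2AK4, NFKBIA, IFNAR1, IFNAR2, IRF1 and IRF2 were chosen after their values were seen. A planned comparison of protein sequences was not run, and some preset genes are not reported here. Exon structure came from GENCODE release 29 (GRCh38), joined by gene identifier for 11314 records. Promoters are from RefSeq. Ratios and motif search were tested on simulated data. Alternatives were other pseudocounts, scalings, filters and a threshold of 1. The software was pandas 2.3.3 and numpy 2.4.6 under Python 3.11.15, with figures drawn in matplotlib 3.10.9.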

Additional observations from a re-analysis of the deposited data

How the results depend on the processing

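The log2 ratios of the 7 genes kept their side of the threshold under the 5 alternative pseudocounts and scalings. They ranged from 1.64 to 1.84 for OAS3, 1.39 to 1.91 for IFIH1, 0.90 to 1.10 for DDX58, 0.68 to 0.72 for EIF2AK2, 0.23 to 0.24 for ADAR and 0.06 to 0.07 for MAVS, and from 1.10 to 2.83 for OAS1, whose control value of 0.109 makes it depend on the pseudocount. At a threshold of 1, 3 of the 7 were called higher (OAS3, IFIH1 and OAS1), and 3 were among the 4 with less than 50% of the transcript in 1 exon. The median of the 7 was 1.10 with a pseudocount of 0.1, 1.08 as TPM, 0.80 with both libraries at an FPKM of at least 1, which drops OAS1, and 1.16 with the exon limit.

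Over all records the counts were 1242 higher with a pseudocount of 0.1 and 1198 as TPM, and 318 higher and 286 lower at a threshold of 1. Among the 5088 records within the exon limit, 198 were higher and 158 lower. With the exon limit, medians were 0.09 for cofactors and MAVS signalling (2 called higher), 0.05 for PKR partners, 0.24 for interferon and cytokine outputs and 0.83 for effectors (11 higher, 0 lower), and no gene was called higher among the restraining genes, the oligoadenylate pathway or the other double-stranded RNA-binding genes, of which 0 were lower. Effector medians were 1.25 with a pseudocount of 0.1 and 1.22 as TPM. With pseudocounts of 0.1 and 0.5 and as TPM, 2 cofactors, 1 restraining gene and 1 output gene were lower, and with 0.1 and TPM also 1 gene each of the oligoadenylate and PKR lists. Restraining genes called higher numbered 3, 2 and 3 under these settings, and 0 at a threshold of 1 or a median ratio of 0. Output genes called higher were 2 with 0.1, and 0 with either filter or a threshold of 1. At that threshold 1 oligoadenylate pathway gene was higher. With both libraries at 1 or more, 0 of the other double-stranded RNA-binding genes were higher and 1 was lower. Of the alternative values 237 were classed as the same as the values reported and 50 as moved. The first class does not hold close values only. It includes OAS1 at 2.83 with a pseudocount of 0.1 against 1.11 as reported. It also includes 999 records called lower at that pseudocount, against 672 as reported. The exon limit turned the sign of 3 list medians near 0, those of cofactors and MAVS signalling (-0.02 without it), PKR partners (-0.07) and the oligoadenylate pathway (-0.03 with it, 0.02 without).

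No paired analysis was possible because each group has 1 library. The absence of replicates, an unknown number of fragments behind each value and the lack of an uninfected sample limit all results. Low values such as that of OAS1 with control shRNA cannot be given an interval.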

Other observations

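Among the markers of cell type, KRT20, a keratin of differentiated intestinal epithelium, was 4.72-fold higher, at 3.62 with LAST shRNA against 0.767 with control shRNA (log2 ratio 1.39). HLA-DRA, an MHC class II gene that interferon gamma induces, was at 2.87 with LAST shRNA against 0.667 with control shRNA (1.21). PTPN11, a phosphatase gene 397 kb from OAS1, was at 65.4 with LAST shRNA against 34.0 with control shRNA, UBE2Q1, next to ADAR, at 16.3 with LAST shRNA against 9.52 with control shRNA, and DPP4, 193 kb from IFIH1, at 5.34 with LAST shRNA against 1.72 with control shRNA. These genes were chosen after their values were seen.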
